A study of Homo sapiens with 60 samples.

Results

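The 26S proteasome is the protease that degrades most ubiquitin-tagged proteins of a cell, and the 31 genes described here encode its constitutive subunits. They were chosen by name from the 60675 gene rows of the deposited count table: 7 alpha subunits (PSMA1 to PSMA7) and 7 beta subunits (PSMB1 to PSMB7) of the 20S core, the 6 ATPases of the 19S cap (PSMC1 to PSMC6), and 11 non-ATPase subunits of that cap (PSMD1, PSMD2, PSMD3, PSMD4, PSMD6, PSMD7, PSMD8, PSMD11, PSMD12, PSMD13 and PSMD14). All 31 were found in the table. Each also passed the filter on low counts, which left 17764 genes in the tests.

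The 20S core is a barrel of stacked rings: the alpha rings gate the entry, and the beta rings carry the proteolytic sites. The 19S cap binds ubiquitinated proteins, removes their ubiquitin and unfolds them with its ring of ATPases before they enter the core. In human cells a shortage of proteasome activity is answered by the transcription factor NRF1 (gene NFE2L1), which raises subunit genes as a group through antioxidant response elements in their promoters. The related factor NRF2 (NFE2L2) acts on the same class of element, and A549 cells are known for a mutation in its inhibitor KEAP1 that leaves NRF2 active.

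The cells were A549, an established human lung carcinoma line, collected after 24 h with a plant or fungal extract or with DMSO vehicle. Their messenger RNA was sequenced in 60 libraries of 25 groups. The ethanol extracts were of Glycyrrhizae Radix (licorice root), Panax Ginseng, Poria Cocos (a fungus), Atractylodis Rhizoma, Angelicae Gigantis Radix and Paeoniae Radix. The water extracts were of the herbal formulas Sibjeondaebo-tang and Palmul-tang. By its label each had a low dose of 20, a medium dose of 100 and a high dose of 500 µg/mL, and the vehicle was 0.1% DMSO. Of the groups, 16 had 3 libraries, 3 (Palmul-tang) had 2 and 6 (Angelicae and Paeoniae) had 1. The series' design text differs from the labels: it gives 2% DMSO and, for extracts whose IC20 lies under 500 µg/mL, doses counted down from the IC20, so the doses are given as labelled. It names wortmannin as a positive control, which is not analysed here. The labels do not say whether replicates were separate cultures, so the p-values measure the spread between these libraries, which may be technical.

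Library totals ran from 18602480 to 29764332 counts. Of the A549 epithelial markers, KRT8 had at least 2057 normalised CPM (counts scaled to a common library size) in every library, while PTPRC and CD3E, markers of blood cells, were at 0 in 53 and 54 libraries. The vehicle libraries carry a set of sample codes of their own, so code set and treatment cannot be told apart in any comparison with the vehicle. The third library of Poria at low dose stood apart, with 27941 genes above 0 against at most 23424 in the others. Without it 0 members were called for Poria at high or medium against low dose, as with it, and over all genes 185 rather than 275 were called at high and 1 rather than 0 at medium dose.

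Promoters were read for the genes that the results below turn on, since NRF1 and NRF2 act through a motif there. RefSeq windows from 250 bases before to 30 bases after the transcription start (280 bases, build GRCh38.p14) were found for 26 of the 31 members, and not for PSMA7, PSMB1, PSMB6, PSMB7 and PSMD4. The antioxidant response element was searched on both strands as TGACNNNGC or TGAGNNNGC, where N is any base. It was present in 11 of 26 member windows (42.3%) and in 27.3% of the 27305 windows of all genes. By form, TGAGNNNGC was in 30.8% of member windows against 16.9% of all windows, and TGACNNNGC in 11.5% against 12.5%. The windows below belong to a pair of genes that fell with Glycyrrhizae at high dose (PSMD1 and PSMB5) and the pair that rose (PSMA6 and PSMD8), each written 5′ to 3′ on the strand of its gene. Capitals mark a match to the element.
PSMD1, chr2:231056617-231056896, plus strand: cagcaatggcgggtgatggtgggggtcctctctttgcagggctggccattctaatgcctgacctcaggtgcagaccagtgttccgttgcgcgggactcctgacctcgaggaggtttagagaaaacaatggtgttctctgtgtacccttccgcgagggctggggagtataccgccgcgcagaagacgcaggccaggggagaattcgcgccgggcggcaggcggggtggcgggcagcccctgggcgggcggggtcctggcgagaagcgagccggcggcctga
PSMB5, chr14:23035191-23035470, minus strand: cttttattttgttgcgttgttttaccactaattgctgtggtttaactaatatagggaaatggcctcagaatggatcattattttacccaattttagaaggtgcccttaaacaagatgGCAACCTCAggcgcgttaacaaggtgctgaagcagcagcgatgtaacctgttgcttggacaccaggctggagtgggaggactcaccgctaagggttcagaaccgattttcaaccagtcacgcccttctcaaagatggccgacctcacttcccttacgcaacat
PSMA6, chr14:35292067-35292346, plus strand: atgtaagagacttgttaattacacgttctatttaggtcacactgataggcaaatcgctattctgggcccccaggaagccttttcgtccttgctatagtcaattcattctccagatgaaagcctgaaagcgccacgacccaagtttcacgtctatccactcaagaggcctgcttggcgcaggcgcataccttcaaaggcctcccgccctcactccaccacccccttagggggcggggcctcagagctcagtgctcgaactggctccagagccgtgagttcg
PSMD8, chr19:38374321-38374600, plus strand: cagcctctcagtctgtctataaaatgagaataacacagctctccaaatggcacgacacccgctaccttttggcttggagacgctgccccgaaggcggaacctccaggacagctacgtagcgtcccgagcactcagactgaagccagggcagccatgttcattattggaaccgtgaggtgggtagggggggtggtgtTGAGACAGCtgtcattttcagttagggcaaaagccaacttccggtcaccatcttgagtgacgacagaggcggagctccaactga
In the window of PSMB5 the match began at position -133 and in that of PSMD8 at position -54, counting the start itself as 0, and the windows of PSMD1 and PSMA6 held none. Matches therefore stood in front of a gene that fell and of one that rose. Of the members with a window, 2 of the 9 that fell at high Glycyrrhizae dose had a match, 1 of the 2 that rose and 8 of the 15 that were not called.

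Other short motifs were read in the same windows. The CCAAT box (CCAAT), bound by NF-Y, was in 53.8% of member windows and 34.7% of all windows. The ETS site CCGGAAG was in 34.6% against 10.3%. The YY1 site AAGATGGC was in 11.5% against 2.53%. Both strands were searched, and overlap between matches of different motifs was not counted. A match describes the letters only and is not evidence of binding.

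All 31 genes were expressed in every library, with means over the 60 libraries between 46.7 normalised CPM (PSMA2) and 279 (PSMD8). Levels were also taken per kilobase of the union of annotated exons, a rough way to compare genes (SD over n = 60 libraries). The highest were PSMB3 at 91.3 CPM per kb (SD 7.15), PSMD8 at 89.9 (SD 6.43) and PSMB6 at 86.2 (SD 6.91). These 3 lay within 1 SD of each other. They were also the top 3 with the longest annotated transcript as the length, in the order PSMD8, PSMB6 and PSMB3. PSMB6 carries the caspase-like site, and PSMB3 and PSMD8 are structural subunits. The lowest per kilobase were PSMD6 at 6.36 (SD 0.465), PSMC6 at 7.37 (SD 0.609) and PSMA2 at 8.76 (SD 0.749). By the longest transcript the lowest 3 were PSMA2 at 11.0, PSMD6 at 12.7 and PSMA5 at 14.1, while PSMC6 stood at 18.75. By class, the median level per kilobase was 69.1 in the beta ring, 35.2 in the 19S non-ATPases, 28.7 in the ATPases and 23.7 in the alpha ring. Subunits of 1 particle thus differed in transcript level, by an amount that depends on the length used.

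The members varied little between libraries. The SD of log2(CPM + 1) over the 60 libraries had a median of 0.0974 over the 31 genes, from 0.0710 for PSMB2 to 0.158 for PSMA7. Over the 3506 tested genes in the same range of mean CPM the median was 0.106. The highest library of PSMA7 stood at 1.64 times its lowest, and that of PSMB2 at 1.26 times. Summed over all 31 genes, the level ran from 3263 CPM in the Paeoniae library at high dose to 4255 CPM in a vehicle library.

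**Figure D1:**
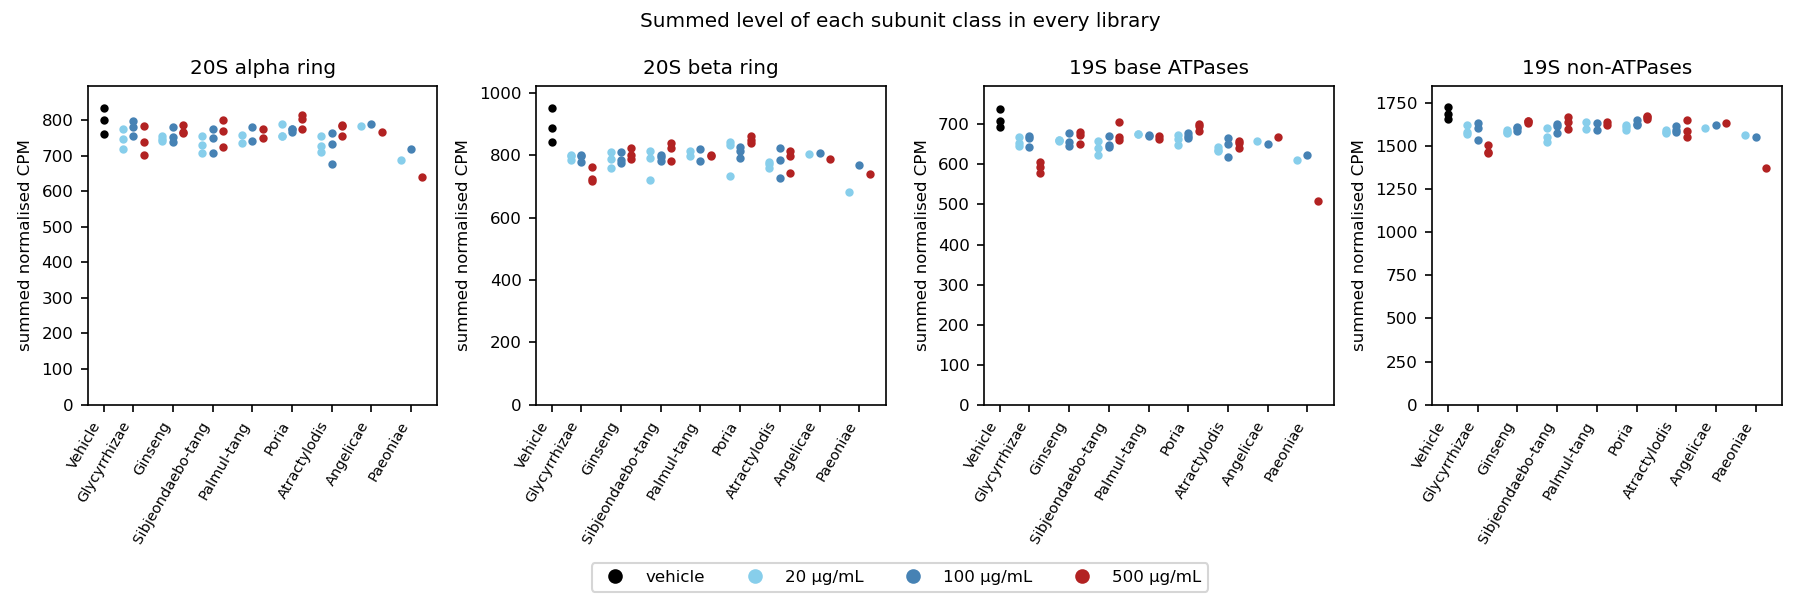
Summed normalised CPM of the 4 subunit classes (vertical axis, from 0) in each of the 60 libraries, grouped by treatment along the horizontal axis and coloured by labelled dose; each point is 1 library. The vehicle libraries hold the highest single value in each class, and for the ATPases the Paeoniae library at high dose (508 CPM) and the 3 Glycyrrhizae libraries at high dose (579 to 606 CPM) are the lowest.

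Glycyrrhizae at high against low dose was the comparison in which the most subunit genes changed with dose. A gene was called where edgeR's quasi-likelihood F-test gave a p, Benjamini-Hochberg adjusted over all 17764 genes, under 0.05. By that rule 9 of the 31 members fell and 2 rose. The background in this comparison was high: 37.0% of all genes tested were called, 18.4% lower and 18.5% higher, so 11 of 31 called is a share near that of all genes. The direction was uneven among the members, whose median log2 change was -0.11 against 0.00 over all genes tested, with 24 of 31 below 0. Most falls were small: the largest was to 0.729 of the low-dose level. Summed over the members, the level was 3790 ± 43.4 CPM (SD, n = 3) at low dose and 3547 ± 60.3 CPM at high dose, and the 3 high-dose libraries (3506 to 3617 CPM) lay below the 3 low-dose libraries (3740 to 3817 CPM).

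The largest falls were in PSMD1 and PSMD2, the large scaffold subunits of the 19S base that dock ubiquitin receptors and shuttle proteins. PSMD1 (GRCh38, GENCODE 29: chr2:231056864-231172827) stood at 195, 204 and 192 CPM in the low-dose libraries and at 147, 144 and 140 CPM at high dose. The medium dose, with 190, 201 and 197 CPM, overlapped the low dose, and the high dose lay below both. Its log2 change was -0.46 ± 0.046 (SE, edgeR adjusted p = 2.47e-11). PSMD2 (chr3:184298709-184309054) stood at 190, 202 and 193 CPM at low dose, 185, 202 and 196 CPM at medium dose and 141, 145 and 149 CPM at high dose. Here too the high-dose libraries were clear of the others. The log2 change of PSMD2 was -0.43 ± 0.050 (edgeR adjusted p = 1.55e-09). PSMD3, a subunit of the 19S lid, went from 230, 218 and 224 CPM to 198, 194 and 192 CPM without overlap (log2 change -0.20 ± 0.046, edgeR adjusted p = 0.000454).

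Of the 6 ATPases that form the unfolding ring, 5 fell and all 6 changes were below 0, with a class median of -0.18. PSMC1 went from 88.5, 102 and 88.1 CPM to 77.1, 74.8 and 81.2 CPM (log2 change -0.26 ± 0.064, edgeR adjusted p = 0.00124). PSMC3 went from 87.2, 94.0 and 90.8 CPM to 77.7, 80.5 and 81.3 CPM (-0.18 ± 0.038, adjusted p = 0.000101). In both genes the doses did not overlap. PSMC6 went from 52.1, 56.6 and 50.1 CPM to 40.0, 45.6 and 47.3 CPM (-0.26 ± 0.073, adjusted p = 0.0043), PSMC5 fell by 0.18 and PSMC2 by 0.14 on the log2 scale. PSMC4 was not called: its high-dose values of 188, 172 and 179 CPM lay within the low-dose range of 165 to 202 CPM. The calls of PSMC2, PSMC5 and PSMC6 were lost with single libraries left out: without the second low-dose library the adjusted p was 0.115 for PSMC2 and 0.101 for PSMC5, and without the first high-dose library it was 0.1 for PSMC2 and 0.0656 for PSMC6. Without the second high-dose library that of PSMC2 was 0.0782, and without a filter on low counts it was 0.0661.

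In the beta ring, which holds the active sites, only PSMB5 was called. PSMB5 carries the chymotrypsin-like site, the main target of proteasome inhibitor drugs. It stood at 129, 129 and 128 CPM at low dose and at 104, 107 and 108 CPM at high dose, with no overlap (log2 change -0.28 ± 0.061, edgeR adjusted p = 0.000266). The other catalytic subunits were not called. PSMB6, of the caspase-like site, had 123, 135 and 116 CPM at low and 112, 113 and 116 CPM at high dose (-0.13 ± 0.061, adjusted p = 0.0958). PSMB7, of the trypsin-like site, had 89.8, 90.8 and 82.8 CPM at low and 84.2, 86.4 and 92.9 CPM at high dose (0.00 ± 0.064, adjusted p = 0.995), and the ranges overlapped. The changes of the remaining 4 beta subunits lay between -0.16 (PSMB3) and 0.03 (PSMB1). Whether PSMB5 changed more than its neighbours was not tested.

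The alpha ring held the clearest rise. PSMA6 went from 187, 177 and 176 CPM at low dose to 199, 208 and 211 CPM at high dose (log2 change 0.19 ± 0.043, edgeR adjusted p = 0.000322), without overlap. The other 6 alpha subunits were not called, with changes between -0.21 (PSMA7, SE 0.089, adjusted p = 0.0601) and 0.04 (PSMA1). The other gene called higher was PSMD8, a lid subunit, with 281, 243 and 276 CPM at low and 329, 293 and 288 CPM at high dose (0.19 ± 0.070, adjusted p = 0.0326). Its groups did not overlap, but the call was lost without the first high-dose library (adjusted p = 0.226) or the second low-dose library (0.218), and with only the compared groups fitted (0.0527).

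PSMD4 and PSMD14 did not pass the test. PSMD4, a ubiquitin receptor, had 105, 110 and 98.4 CPM at low and 105, 102 and 102 CPM at high dose. PSMD14, the deubiquitinase of the lid, had 88.2, 90.3 and 81.8 CPM at low and 88.0, 93.0 and 93.6 CPM at high dose. Both pairs of groups overlapped, with log2 changes of -0.03 ± 0.046 and 0.08 ± 0.054. The 5 other non-ATPase subunits that were not called (PSMD6, PSMD7, PSMD11, PSMD12 and PSMD13) changed by -0.16 to 0.05.

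**Figure D2:**
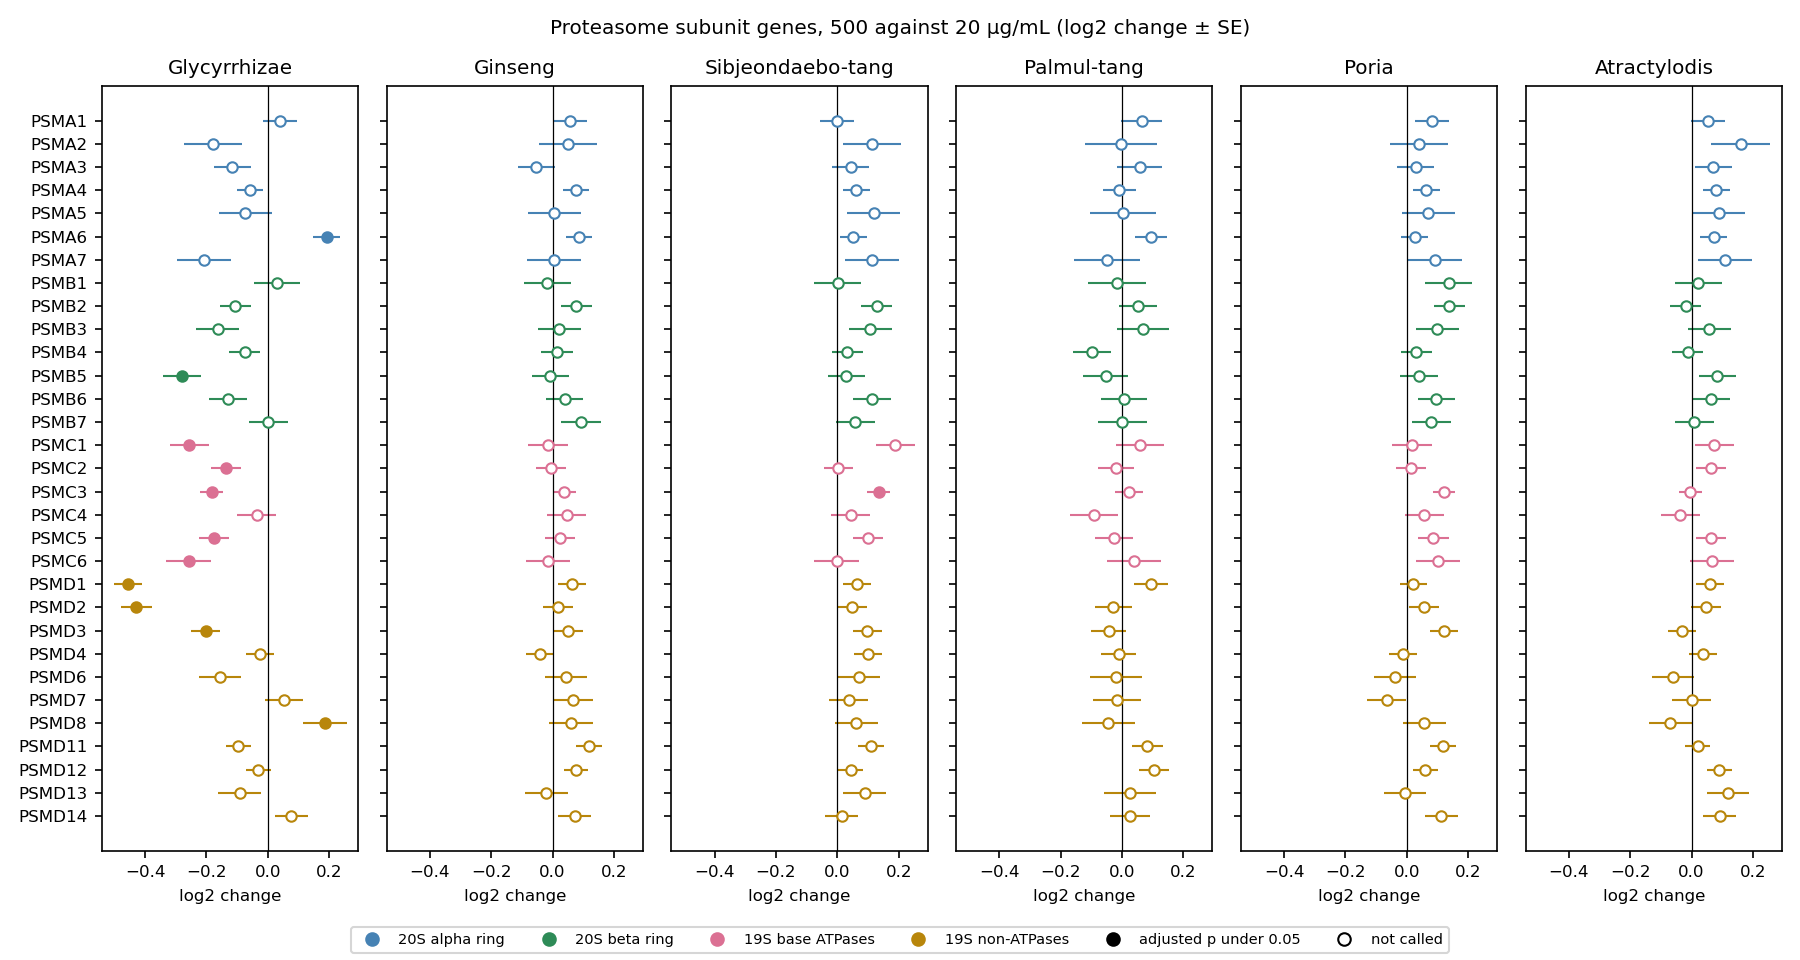
Log2 change from 20 to 500 µg/mL (horizontal axis) of the 31 subunit genes (rows, coloured by class) for the 6 replicated extracts, with bars of ± 1 SE; filled points passed the adjusted p threshold of 0.05 in edgeR's test. Filled points are 11 for Glycyrrhizae, led by PSMD1 at -0.46, and 1 (PSMC3) for Sibjeondaebo-tang.

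Of the 11 calls, 7 (PSMA6, PSMB5, PSMC1, PSMC3, PSMD1, PSMD2 and PSMD3) held under every alternative that was run for this comparison. Some members share their place in the genome with another gene, and the strand setting of the authors' counting is not given in the sources used here, so reads of overlapping neighbours may not be separable. PSMC5 overlaps FTSJ3 on the opposite strand, which had 81.5% of the CPM of PSMC5 and a log2 change of -0.29. PSMC1 overlaps NRDE2 (20.2% of its CPM, log2 change -0.32) and has a pseudogene copy, PSMC1P1, counted at 7.09% of its level. PSMC2 overlaps DNAJC2 (52.0%, log2 change 0.10). PSMA6 shares its strand with a readthrough gene counted at 4.5% of its level, and PSMA2 with one at 22.5%. On the opposite strand PSMA2 also overlaps MRPL32, counted at 105% of its CPM (log2 change -0.11). PSMD13 overlaps SIRT3 there (34.8%, log2 change -0.20) and PSMA3 overlaps PSMA3-AS1 (31.3%, log2 change -0.27). Overlap was taken over whole gene spans, introns included, and shared exon bases were not measured. The percentages give the other gene's own CPM and do not show that reads were shared. The values of these members may be uncertain for that reason, by an amount not determined here. Over the 31 members the change had a Spearman correlation of 0.03 with transcript length and -0.24 with GC content, given as a description of genes that share the same 6 libraries.

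**Figure D3:**
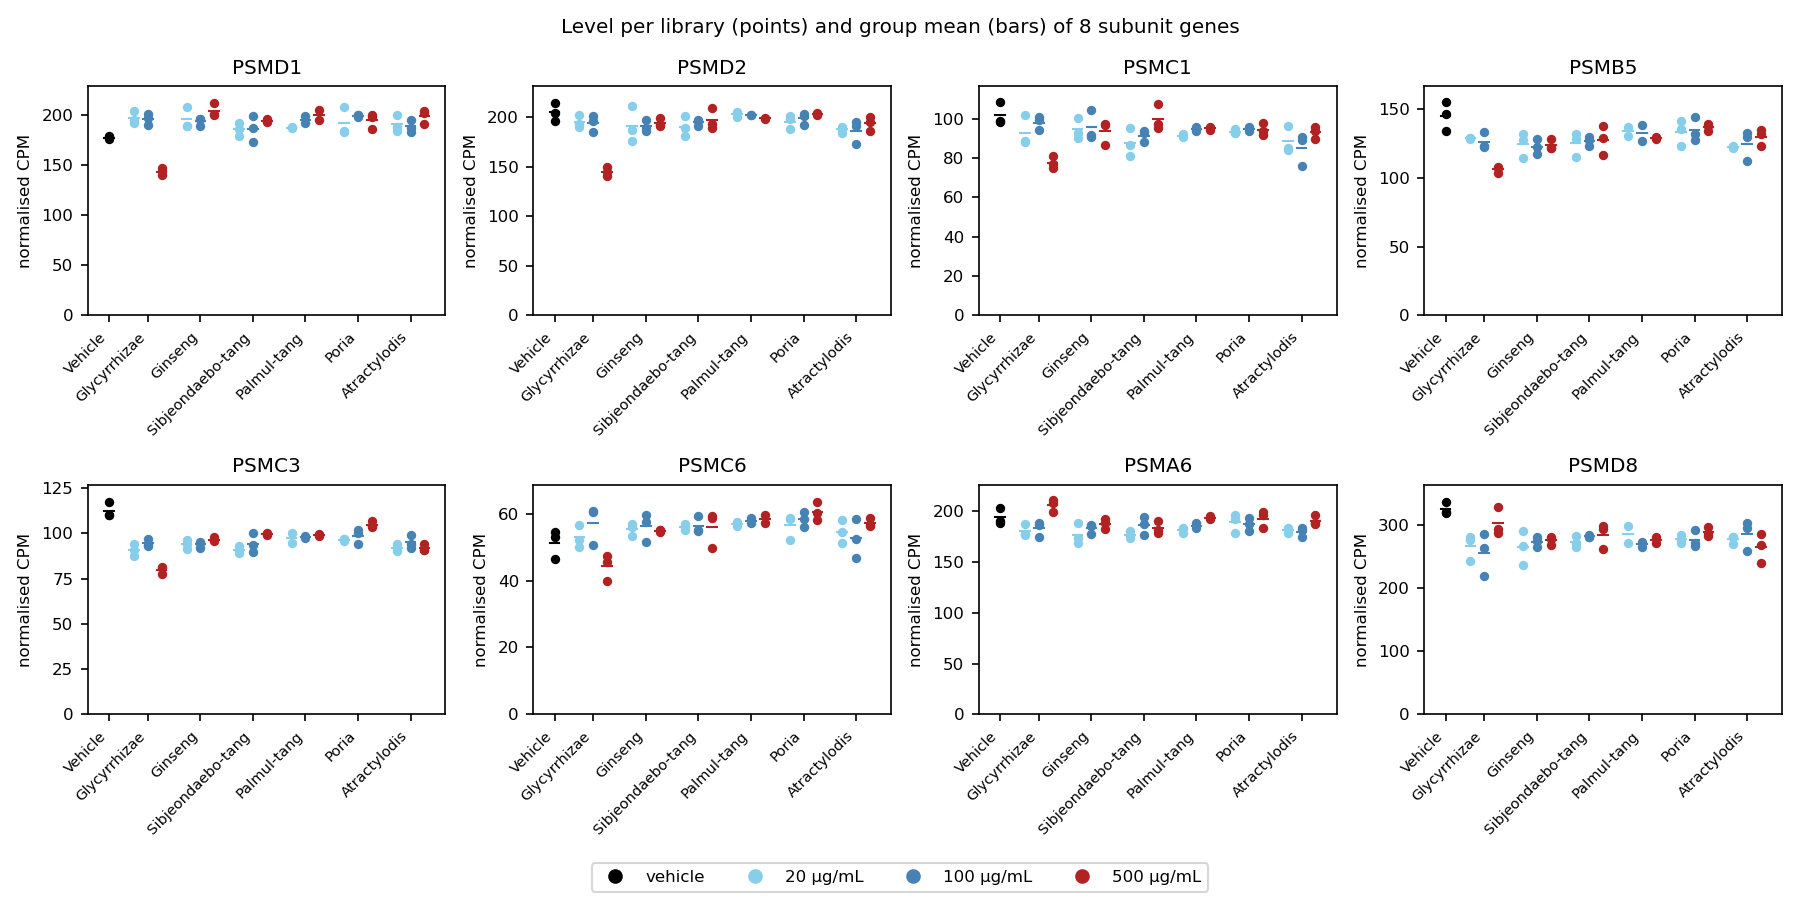
Normalised CPM (vertical axis, from 0) of 8 subunit genes in each library of the vehicle and the 6 replicated extracts; points are libraries, bars are group means and colours are labelled doses. PSMD1 and PSMD2 at the high Glycyrrhizae dose (140 to 149 CPM) lie below every other library shown.

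With the other 5 replicated extracts, high against low dose, the subunit genes showed 1 call in all. Ginseng had 0 of 31 members called (1.20% of all genes tested were called), Palmul-tang 0 (2.08%), Poria 0 (1.55%) and Atractylodis 0 (0.208%). At an unadjusted p under 0.05 edgeR gave 1 member for Ginseng, 1 for Palmul-tang, 5 for Poria and 1 for Atractylodis, where 9.64%, 12.1%, 11.9% and 6.85% of all genes tested passed that threshold. DESeq2 called 0, 0, 1 (PSMC3, log2 change 0.12, adjusted p = 0.0486) and 0. These counts do not show that the genes stayed level, so the 95% confidence intervals bound them: over all 31 members they lay within -0.18 to 0.24 for Ginseng, -0.27 to 0.24 for Palmul-tang, -0.19 to 0.29 for Poria and -0.21 to 0.35 for Atractylodis on the log2 scale. Replicate numbers paired the libraries of Ginseng and of Poria, by the rule given under the processing. The fit with a replicate block did not model that pairing alone, since each replicate effect was shared by all extracts of a code set. It called 457 genes rather than 275 in all for Poria and 320 rather than 214 for Ginseng, with the members still at 0. Leaving out 1 library moved the counts over all genes by more than 1.5 times in all 4 extracts, from 214 to as few as 94 for Ginseng, from 370 to 108 to 172 for Palmul-tang with any library left out, from 275 to as few as 142 for Poria and from 37 to as few as 16 for Atractylodis.

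Sibjeondaebo-tang had 1 of 31 called (3.78% of all genes tested). It was PSMC3, with 93.1, 89.0 and 90.2 CPM at low and 99.3, 99.6 and 100 CPM at high dose, a rise of 0.14 ± 0.037 on the log2 scale (edgeR adjusted p = 0.0272) that ran against the fall of the same gene with Glycyrrhizae. The call was lost when only the compared groups were fitted (adjusted p = 0.135), without a filter on low counts (0.324), and without any 1 of 5 of the 6 libraries (0.0647 to 0.14). The exception was the first low-dose library. The median change over the members was 0.06 for Sibjeondaebo-tang, 0.06 for Poria, 0.06 for Atractylodis, 0.04 for Ginseng and 0.00 for Palmul-tang, against medians over all genes between -0.01 and 0.01.

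The catalytic subunits, PSMD4 and PSMD14 can be followed through the same comparisons. PSMB5 changed by -0.01 with Ginseng, 0.03 with Sibjeondaebo-tang, -0.05 with Palmul-tang, 0.04 with Poria and 0.08 with Atractylodis, none of them called. PSMB6 lay between 0.01 and 0.11, PSMB7 between 0.00 and 0.09, PSMD4 between -0.04 and 0.10 and PSMD14 between 0.01 and 0.11 in those 5 extracts. None of these was called either.

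Whether the dose change with Glycyrrhizae differed from that with another extract was tested directly, as the difference between both changes in the same model. Against Ginseng, 7 of 31 members differed, all more negative with Glycyrrhizae, where 21.0% of all genes tested differed and 11.3% were more negative. Against Sibjeondaebo-tang 11 were more negative (all genes 24.4%, 13.1% more negative) and against Palmul-tang 5 (20.8%, 11.1%). Against Atractylodis 8 were more negative (24.2%, 12.9%). Against Poria 11 were more negative and 1, PSMA6, was more positive (23.7%, with 12.6% more negative and 11.1% more positive), and without the third low-dose Poria library 13 differed in all. The call of PSMA6 was lost without any 1 of 7 of the 12 libraries (adjusted p 0.0626 to 0.127) and without a filter on low counts (0.188). The Palmul-tang count became 3 without either low-dose Palmul-tang library or the second high-dose Glycyrrhizae library, and that of Atractylodis 5 without the second low-dose Glycyrrhizae library. These 5 tests share the Glycyrrhizae libraries, so they are not independent of each other.

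PSMD1, PSMD2 and PSMC3 differed in all 5 tests. For PSMD1 the difference ran from -0.55 (Palmul-tang) to -0.48 (Poria) and for PSMD2 from -0.48 (Poria) to -0.40 (Palmul-tang), and none of these 10 calls was lost under any alternative run. For PSMC3 it ran from -0.32 (Sibjeondaebo-tang) to -0.18 (Atractylodis), and without a filter on low counts it was lost against Ginseng (adjusted p = 0.0522), Palmul-tang (0.121) and Atractylodis (0.131). Against Palmul-tang it was also lost without Palmul-tang low-dose replicate 2 (0.0854). PSMB5, PSMC1, PSMC5 and PSMD11 differed in 4 tests each and PSMD3 in 3. PSMD11, a lid subunit, was not itself called with Glycyrrhizae (-0.10).

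At medium against low dose no member was called with any of the 6 extracts. The share of all genes called was 0.788% for Glycyrrhizae, 0.0788% for Sibjeondaebo-tang and 0% for the other 4. At an unadjusted p under 0.05 edgeR gave 0 members in each (2.51% to 7.58% of all genes tested), and DESeq2 called 0 in each. The member changes with Glycyrrhizae at medium dose lay between -0.08 (PSMC4) and 0.12 (PSMA3), with a median of 0.03, and PSMD1 and PSMD2 overlapped their low-dose values as given above.

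Against the vehicle, subunit genes stood lower in the extract libraries already at low dose. The mean of the 6 low-dose groups was lower than the vehicle for 16 members and higher for 1 (34.1% of all genes tested were called, 17.1% lower and 16.9% higher), and the members' median log2 difference was -0.12 against 0.00 over all genes. All 7 beta subunits were called lower, as were 2 of 7 alpha subunits, 4 of 6 ATPases and 3 of 11 non-ATPases. The 3 largest differences were PSMC3 (-0.27 ± 0.028, edgeR adjusted p = 9.81e-10), PSMA7 (-0.26 ± 0.067, adjusted p = 0.00169) and PSMB3 (-0.25 ± 0.053, adjusted p = 0.000218). PSMD1 was the gene called higher (0.11 ± 0.036, adjusted p = 0.0146). This call was lost without the first (0.0788) or the second vehicle library (0.0571). The total of 17 fell to 7 without the second vehicle library, and PSMB3 and PSMB6 were then the only beta subunits still called. It was 17 with the third low-dose Poria library left out.

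The vehicle contrast moved with the composition of the transcripts. Over the 31 members the low-dose difference had a Spearman correlation of -0.73 with GC content and 0.52 with transcript length, where all genes with a value (17631) had -0.50 and 0.36. The members with the highest GC content, PSMC3 and PSMA7, had the most negative differences. The part of GC content and of the code set in these differences was not tested.

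**Figure D4:**
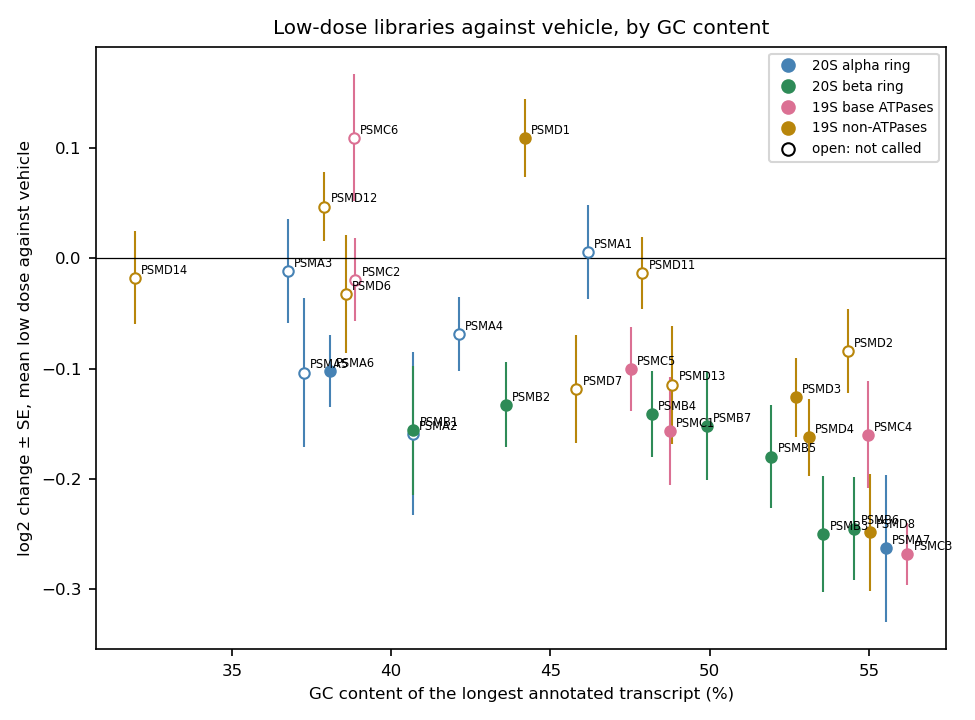
Log2 difference between the mean of the 6 low-dose groups and the vehicle (vertical axis, ± 1 SE) against GC content of the longest transcript in % (horizontal axis) for the 31 subunit genes, coloured by class; filled points passed the adjusted p threshold of 0.05 in edgeR's test. Points slope down to the right, from PSMC6 and PSMD1 at 0.11 to PSMC3 at -0.27.

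At high dose against the same 3 vehicle libraries, 21 members were lower with Glycyrrhizae and 0 higher (46.8% of all genes tested were called, 23.5% lower and 23.3% higher). Ginseng had 8 lower and 3 higher (all genes 28.9%, 13.7% lower and 15.2% higher) and Sibjeondaebo-tang 3 lower and 1 higher (15.2%, 6.12% and 9.04%). Palmul-tang had 6 lower and 2 higher (22.2%, 10.0% and 12.2%), Poria 1 lower and 3 higher (16.3%, 6.41% and 9.89%) and Atractylodis 9 lower and 2 higher (26.1%, 12.3% and 13.8%). Lower calls outnumbered higher ones with every extract but Poria, and for Palmul-tang this turned without the second vehicle library (1 lower and 2 higher) and evened out without the third (2 and 2). Several totals changed with single libraries left out. With Sibjeondaebo-tang the 4 calls became 1 without the second vehicle library and 2 without the third, or without the first or the third high-dose library. With Palmul-tang the 8 calls became 3 and 4 without the second and the third vehicle library, and 3 and 1 without the second and the third high-dose library. With Poria the 4 calls, PSMC3 among them, became 0 without the first vehicle library or the second high-dose library and 2 without the second vehicle library or the first high-dose library. The 11 calls became 7 without the third high-dose library of Ginseng or the second of Atractylodis. PSMC3 was lower in all 6 comparisons, at 110, 118 and 110 CPM in the vehicle. Its log2 difference was -0.50 with Glycyrrhizae, -0.29 with Atractylodis, -0.22 with Ginseng, -0.18 with Palmul-tang, -0.17 with Sibjeondaebo-tang and -0.10 with Poria. The Poria call was lost without any 1 of 5 of the 6 libraries (adjusted p 0.0578 to 0.264), and that with Palmul-tang without a filter on low counts (0.0576). PSMB6 was lower in 5, a call lost without the second vehicle library in Ginseng, Sibjeondaebo-tang, Palmul-tang and Atractylodis. PSMD1 went the other way. It was higher than the vehicle in 5 comparisons, by 0.13 to 0.20. Its call was lost without any 1 of the 6 libraries with Sibjeondaebo-tang (0.0663 to 0.127), without any 1 of 5 of the 6 with Poria (0.055 to 0.149) and without 1 high-dose library with Palmul-tang (0.164). With Ginseng and Atractylodis no left-out library ended it. PSMD1 was lower with Glycyrrhizae (-0.31 ± 0.046, adjusted p = 3.6e-07), where its 140 to 147 CPM stood below the vehicle's 176, 178 and 179 CPM. PSMD12, a lid subunit, was higher in 4, by 0.12 to 0.13, and each of these calls was lost without the first vehicle library (adjusted p 0.0703 to 0.116). The comparisons share their vehicle libraries, so their likeness is not independent evidence.

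The genes around the proteasome were read from 8 lists of 49 related genes, 47 of which were tested. With Glycyrrhizae at high against low dose 8 were higher and 12 lower, in a comparison in which 18.5% of all genes tested were called higher and 18.4% lower, 37.0% in all. Of these 20 calls, 16 held under every alternative run. In the list of the NRF1 route and its partners 5 of 8 rose and 2 fell, with a median log2 change of 0.26 against 0.00 over all genes. MAFF, a small MAF protein that pairs with NRF factors, had 1.78, 1.58 and 1.34 CPM at low and 5.19, 4.62 and 5.74 CPM at high dose (1.73 ± 0.162, edgeR adjusted p = 3.44e-12). NFE2L3, a relative of NFE2L1, rose by 0.59 ± 0.088, NFE2L2 by 0.37 ± 0.055 and MAFG by 0.32 ± 0.037. NFE2L1 itself fell by 0.16 on the log2 scale (SE 0.037, adjusted p = 0.000576), from 512, 530 and 531 CPM to 483, 455 and 470 CPM. DDI2, the protease that cuts NRF1 into its active form, fell by 0.47 (from 46.7, 49.5 and 46.8 CPM to 34.5, 33.7 and 35.2 CPM, edgeR adjusted p = 5.91e-10). NGLY1, the glycanase that edits NRF1, rose by 0.15 on the log2 scale, a call lost without any 1 of 3 of the 6 libraries (edgeR adjusted p 0.0927 to 0.193).

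Among shuttles and the segregase, 1 of 9 rose and 4 fell, with a median of -0.10, beside the same shares of all genes (18.5% higher and 18.4% lower). VCP, the ATPase that extracts ubiquitinated proteins for the proteasome, had 462, 512 and 458 CPM at low and 320, 342 and 340 CPM at high dose (-0.51 ± 0.070, edgeR adjusted p = 5.77e-08). Its groups did not overlap. RAD23B, a shuttle receptor, fell by 0.10 (SE 0.038), a call lost without any 1 of 4 of the 6 libraries (edgeR adjusted p 0.101 to 0.126). ZFAND2A, a stress-induced proteasome partner, rose by 0.41, while UBQLN2 fell by 0.31 and ZFAND5 by 0.21. In the ubiquitin supply list, UBA1, the main ubiquitin-activating enzyme, fell by 0.24 and UBA6 rose by 0.19, with 4 of 6 not called. The call of UBA6 was lost without any 1 of 4 of the 6 libraries (edgeR adjusted p 0.0811 to 0.171).

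Assembly genes did not move one way: PSMG1, a chaperone of alpha ring assembly, rose by 0.28 ± 0.058, while POMP, which guides beta ring assembly, fell by 0.23 (SE 0.082, edgeR adjusted p = 0.0247), PSMD5 fell by 0.18, and 6 of 9 were not called. The call of POMP was lost without the first high-dose library (0.25) or the second low-dose library (0.169). Of the activators and the inhibitor, PSME4 fell by 0.21 and PSME2 by 0.16, with 4 of 6 not called. UBE3C, a ligase bound to the proteasome, fell by 0.17. The interferon-inducible immunoproteasome subunits stood low and none of the 3 was called. PSMB8 had 11.0, 11.2 and 11.5 CPM at low and 10.8, 12.3 and 13.9 CPM at high dose, PSMB9 group means lay between 2.77 and 4.75 CPM over all 25 groups and PSMB10 changed by -0.16 ± 0.102. PSMA8 and PSMB11, subunits of testis and thymus, were not tested for lack of counts.

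**Figure D5:**
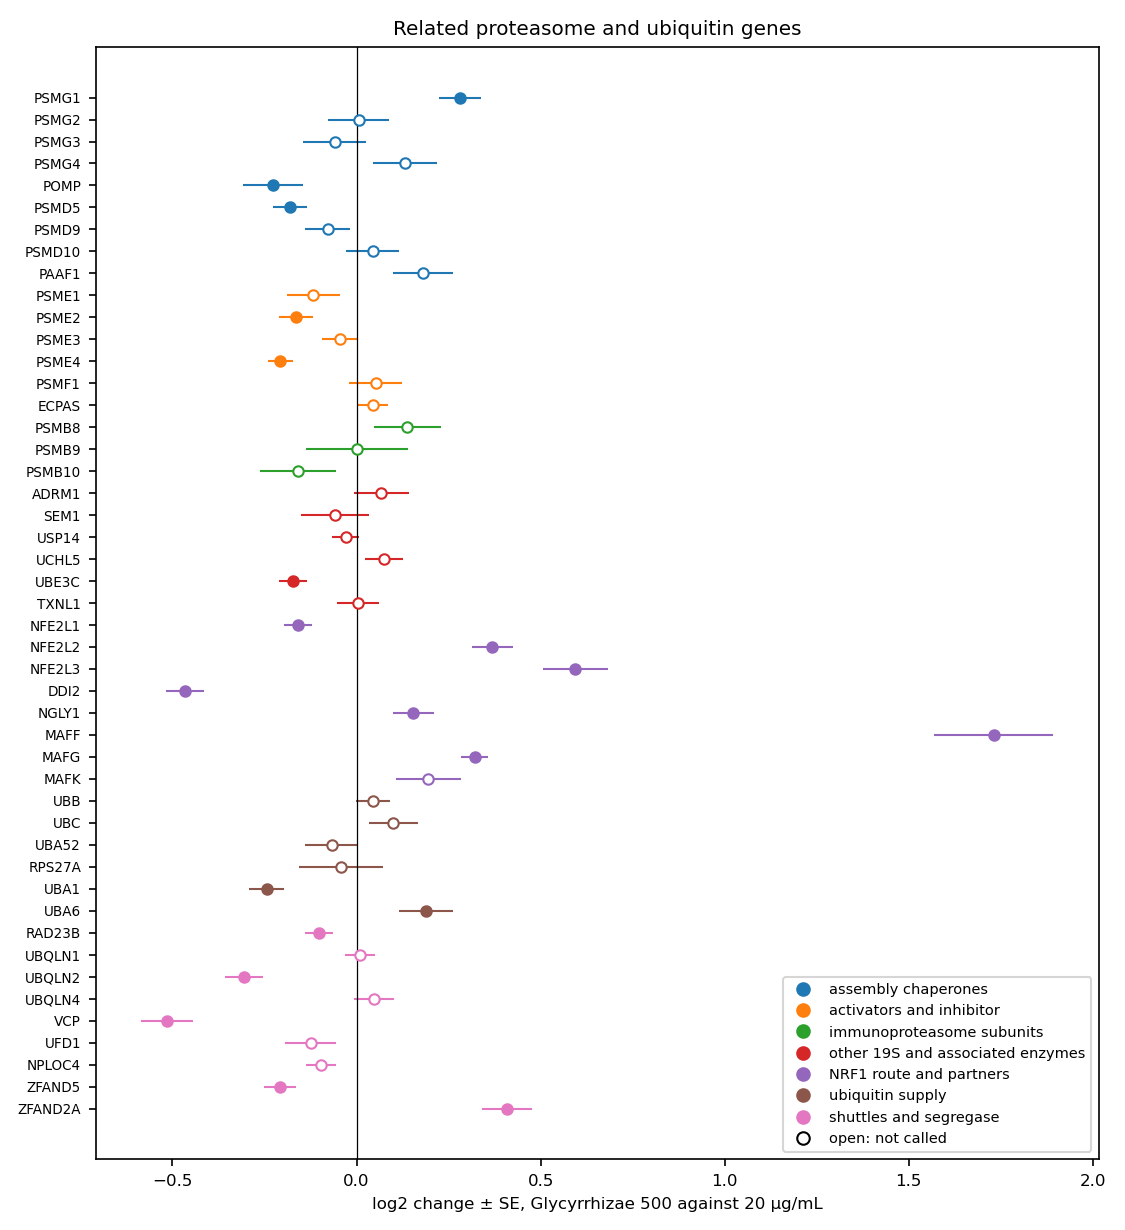
Log2 change with Glycyrrhizae from 20 to 500 µg/mL (horizontal axis, ± 1 SE) of the 47 tested related genes (rows, coloured by list); filled points passed the adjusted p threshold of 0.05 in edgeR's test. MAFF lies farthest to the right at 1.73 and VCP farthest to the left at -0.51.

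In the other extracts at high against low dose 3 related genes were called. Poria had 2 of 47 tested (1.55% of all genes tested were called) and Sibjeondaebo-tang 1 of 47 (3.78%). Ginseng, Palmul-tang and Atractylodis had 0 of 47 each (1.20%, 2.08% and 0.208%). PSMG1 rose by 0.25 ± 0.058 with Poria (edgeR adjusted p = 0.0138). NFE2L1 fell by 0.14 with Poria (SE 0.037, adjusted p = 0.0326), and MAFG rose by 0.13 with Sibjeondaebo-tang (SE 0.038, adjusted p = 0.0373). None of these 3 calls held throughout. Without the third low-dose Poria library, which stood apart, edgeR's adjusted p was 0.112 for PSMG1 and 0.0639 for NFE2L1. In all, PSMG1 lost its call in 3 of 6 leave-outs (0.0602 to 0.112), NFE2L1 in 5 of 6 (0.0639 to 0.166) and MAFG in 5 of 6 (0.0588 to 0.213). The change of NFE2L1 was -0.11 with Ginseng, -0.12 with Sibjeondaebo-tang, -0.15 with Palmul-tang and -0.03 with Atractylodis, not called in any of these. POMP lay between 0.09 and 0.13 in the same 5 extracts, PSMB8 between 0.00 and 0.12, PSMB9 between -0.21 and 0.21 and PSMB10 between -0.13 and 0.04.

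Markers moved with the Glycyrrhizae dose as well. The 7 genes listed as A549 epithelial markers summed to 15530 to 15850 CPM at low and 11860 to 12160 CPM at high dose. That list holds KRT8, KRT18, KRT19 and EPCAM, and also the enzymes ALDH1A1, AKR1B10 and NQO1. Over all libraries these enzymes had medians of 4287, 3593 and 1225 CPM, so the sum is not a measure of epithelial identity alone. The blood markers summed to 2.43 to 2.91 CPM at low and 3.30 to 3.99 CPM at high dose. The 6 endothelial and fibroblast markers summed to 14.6 to 16.7 and 9.13 to 9.71 CPM. Their part in the subunit changes was not tested. In bulk RNA, fewer cells of a kind and less RNA per cell cannot be told apart.

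Angelicae and Paeoniae had 1 library per dose, so their values have no replicate check and no test. With Angelicae, 0 of 31 members had a log2 ratio of high to low dose, on the CPM + 1 scale, of 0.32 or more either way (6.68% of all genes tested did), and the changes ran from -0.13 (PSMA7) to 0.12 (PSMD8). With Paeoniae, 7 of 31 passed that size (43.7% of all genes tested did). The lowest log2 ratios were -0.57 for PSMD11, with 177 CPM at low, 166 at medium and 118 at high dose, and -0.57 for PSMD6, with 58.5, 58.1 and 39.0 CPM. The highest was 0.34 for PSMB1, with 60.1, 75.0 and 76.3 CPM. PSMD1 went from 193 CPM at low to 142 at high dose (-0.44), while PSMD2 had 169 and 171 CPM (0.01), so the pair that fell together with Glycyrrhizae did not do so in these libraries. The summed ATPases stood at 611, 624 and 508 CPM over the 3 doses, and the summed beta ring at 684, 770 and 739 CPM.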

How the data were processed

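The authors deposited expected counts per gene. The submitters' processing notes name FastQC 0.11.9, Trim Galore 0.6.5, STAR 2.7.3a, RSEM 1.3.3 and the GRCh38 build. The release of the annotation, like the strandedness used in counting, was not given in the sources used here. Of the 270 columns, 60 were used and 210 were not. Of the values above 0, 76% were whole within 1e-09, and all were rounded before fitting. Identifiers were matched to symbols, positions and lengths in GENCODE 29.

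Libraries were scaled by TMM and genes filtered by filterByExpr, leaving 17764. A model with a mean for each group was fitted over the 60 libraries with edgeR 4.0.16 (R 4.3.3, 35 residual degrees of freedom, biological coefficient of variation 5.59%), tested by the quasi-likelihood F-test (two-sided) and adjusted by Benjamini-Hochberg at 0.05 over all genes. SE is the log2 change over the square root of F. CPM were computed with the scaled library sizes. Angelicae and Paeoniae were given as log2 ratios of CPM + 1. The fit was tested on counts simulated with a chosen spread, for Glycyrrhizae at high against low dose. It recovered 2 of 50 genes changed 1.1-fold, 34 of 50 changed 1.25-fold, 49 of 50 changed 1.5-fold and 50 of 50 changed 2-fold. Of 17198 unchanged genes 13 were called. Small changes can thus be missed. The simulation changed only the genes counted here, while 6568 of 17764 genes were called in the real comparison. The adjustment was therefore stricter in the simulation, and its recovery shares do not carry over to the data.

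Replicate numbers were taken to pair libraries where, with at least 3 pairs, every same-numbered pair had correlated deviations above 0.1: Ginseng high and low (0.165, 0.196, 0.321), Ginseng medium and low (0.349 to 0.42), Glycyrrhizae medium and low (0.181 to 0.64) and Poria high and low (0.17 to 0.395). The members and gene lists were chosen with earlier results of these data known, and 1 listed related gene is not reported here. All 31 members are accounted for, every member may be named for Glycyrrhizae at high dose, and elsewhere up to 6 called members each way are named, with PSMB5, PSMB6, PSMB7, PSMD4 and PSMD14 wherever values are listed. Up to 8 called related genes each way are named, and PSMB8, PSMB9, PSMB10, NFE2L1 and POMP always. RAD23B, PSME2 and UBE3C are named beyond this rule, a choice made after seeing their values. Alternatives were no filter, RLE size factors, DESeq2 1.42.0, a replicate block, only the compared groups, each library left out, and another length or pseudocount. The replicate block was an effect of replicate number within a code set, shared by the extracts of that set.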

Additional observations from a re-analysis of the deposited data

Results flagged for a closer look

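The dose change with Glycyrrhizae differed from that with another extract, by a test of the difference itself in 1 model, for 7 members against Ginseng, 11 against Sibjeondaebo-tang, 5 against Palmul-tang, 12 against Poria and 8 against Atractylodis. Of all genes tested, 21.0%, 24.4%, 20.8%, 23.7% and 24.2% differed in that order. The counts, out of 31 members, are to be read against those shares. PSMD1 differed by -0.52, -0.52, -0.55, -0.48 and -0.52 on the log2 scale in that order of extracts. PSMD2 differed by -0.45, -0.48, -0.40, -0.48 and -0.48, and PSMC3 by -0.22, -0.32, -0.21, -0.30 and -0.18. All of these differences share the Glycyrrhizae libraries. No group had more than 3 libraries, so single libraries were not tested for lying far from their group.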

How the results depend on the processing

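At high against low dose Glycyrrhizae had 8 to 14 member calls over all alternatives, and Ginseng, Palmul-tang and Atractylodis had 0. Sibjeondaebo-tang had 1 call, 2 with the replicate block, 0 with only the compared groups fitted, and 0 to 2 with 1 library left out. Poria had 0, and 1 with DESeq2. Against the vehicle, Sibjeondaebo-tang had 4 calls, 2 with the block, 2 with only the compared groups and 7 with DESeq2, and Palmul-tang had 8, then 3 with the block and 4 with only the compared groups. Poria had 4, and 2 without a filter. With 1 library left out the vehicle counts ran from 1 to 5 for Sibjeondaebo-tang, 1 to 7 for Palmul-tang, 0 to 3 for Poria, 7 to 11 for Ginseng, 7 to 11 for Atractylodis and 7 to 19 for the mean low dose. The lone library left in a Palmul-tang group is then assumed to vary like the other groups. Counts of members whose change differed ran from 3 to 6 against Palmul-tang and 5 to 12 against Atractylodis with 1 library left out. The replicate block changed no other member count by over 1.5 times (Glycyrrhizae at high dose: 14 instead of 11). Outside the paired comparisons named under the processing, libraries share only a number, and there not every library with 3 replicates correlated best with its own number.

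By the longest transcript, the class medians per kilobase were 39.2 for the alpha ring, 90.6 for the beta ring, 42.7 for the ATPases and 55.6 for the non-ATPases. Counts over all genes moved by over 1.5 times with only the compared groups fitted: Ginseng from 214 to 21, Sibjeondaebo-tang 672 to 323, Palmul-tang 370 to 577, Poria 275 to 123 and Atractylodis 37 to 21 at high dose, Glycyrrhizae 140 to 8, Sibjeondaebo-tang 14 to 7 and Palmul-tang 0 to 4 at medium dose, and Sibjeondaebo-tang against the vehicle 2693 to 1514. With the block they were 557 for Palmul-tang, 457 for Poria and 88 for Atractylodis at high dose and 1 for Poria at medium dose. Without a filter, Atractylodis had 209 at high dose, and at medium dose Glycyrrhizae had 228, Sibjeondaebo-tang 88, Palmul-tang 65, Poria 59, Atractylodis 50 and Ginseng 44. DESeq2 gave 67 for Atractylodis at high dose, and 25 for Sibjeondaebo-tang, 3 for Palmul-tang and 3 for Ginseng at medium dose. With 1 library left out the counts ran from 94 to 245 for Ginseng, 377 to 502 for Sibjeondaebo-tang, 108 to 172 for Palmul-tang, 142 to 196 for Poria and 16 to 30 for Atractylodis at high dose, from 65 to 148 for Glycyrrhizae and 1 to 3 for Sibjeondaebo-tang at medium dose, and against the vehicle from 1631 to 2552 for Sibjeondaebo-tang, 1975 to 3865 for Palmul-tang and 1907 to 2891 for Poria. The causes were not tested. The 127 single-gene results read under the alternatives were all called in the main fit, so only a loss of the call could be seen. Of their 1684 values under an alternative, 1450 kept the call, 234 lost it and 0 turned direction. The alternatives reuse most or all of the compared libraries, so a turn of direction was unlikely from the start. Every member had at least 783 counts in each library.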
